A study of Mus musculus with 20 samples.

Results

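The SMN complex genes were followed in brains of mice with spinal muscular atrophy (SMA), a disease of lower motor neurons caused by low levels of the survival of motor neuron protein, SMN. The members were the 9 rows of the deposited table named for the complex, Smn1, Gemin2, Gemin4, Gemin5, Gemin6, Gemin7, Gemin8, Ddx20 and Strap, out of 45700 genes in all. The complex loads a ring of Sm proteins onto small nuclear RNAs (snRNAs) in the cytoplasm, the step that makes the core of the spliceosomal snRNPs. In it, SMN and Gemin2 hold the Sm proteins, Gemin5 recognizes the snRNA, Ddx20 (Gemin3) is a DEAD-box helicase that partners Gemin4, and Gemin6, Gemin7 and Gemin8 form a subunit to which Strap (Unrip) binds.

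Total cytoplasmic RNA (all fractions of a sucrose gradient, RNA-seq) and polysomal RNA (the polysomal fractions only, POL-seq) were sequenced from "Taiwanese" SMA mice and control littermates on a congenic FVB background. SMA mice were Smn-/-; SMN2tg/0 and controls were heterozygous, Smn-/+;SMN2tg/0, so that both genotypes carried the human SMN2 transgene and neither group had 2 intact copies of Smn1. Brains were taken at postnatal day 5 (early-symptomatic, 2 replicates per genotype) and day 7 (late-symptomatic, 3 replicates per genotype), which gave 20 libraries in 8 groups. Values were FPKM, fragments scaled by transcript length and by the mapped fragments of the library, so depth is unknown from the table and no counting interval could be given. Changes were differences in log2(FPKM + 0.1) tested with limma over 15247 genes, those that averaged 1 FPKM or more over the 20 libraries, and a gene was called at unadjusted p under 0.05, with the Benjamini-Hochberg adjusted p given beside it. All 9 members passed the filter and none was listed at 0 FPKM in any library.

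The libraries held brain markers. Neuronal markers summed to between 1166 and 3694 FPKM per library, with Stmn2 the most abundant of the 5, and the 4 astrocyte markers to between 266 and 547 FPKM. The liver markers Alb and Apoa2 together reached at most 0.28 FPKM. Tubb3, a neuronal tubulin, had an FPKM of 0 in the 2 polysomal libraries of early-symptomatic controls, against 859 and 986 in those of SMA mice. A 0 of this kind may be a failed estimate. The neuronal sum was lowest in the same 2 libraries, at 1166 and 1396 FPKM, with Tubb3 counted as 0. In the other groups it started at 1792 FPKM. Of 63 genes at 0 in those 2 libraries and above 1 FPKM in each of the other 18, 61 share 1 merged deposited locus with Tubb3 (chromosome 8, 119910360 to 124345724, GRCm38), the muscle actin Acta1 among them, and the other 2 were Map1b and Tuba1b. No member of the complex lies in that locus. Marker sums are given as group means, with no test. For dividing cells (Mki67, Top2a and Cdk1) the sum averaged 34.8 FPKM in control and 17.5 FPKM in SMA early-symptomatic total RNA, and the libraries did not overlap. In late-symptomatic total RNA it averaged 20.1 and 12.4 FPKM, and the libraries overlapped, at 14.1 to 27.4 FPKM in control and 6.97 to 17.6 FPKM in SMA mice. The endothelial markers Cldn5 and Pecam1 summed to 55.8 and 23.5 FPKM in the early and 36.1 and 18.7 FPKM in the late libraries of that fraction, with no overlap at either stage. In late-symptomatic brains choroid plexus markers (Ttr, Folr1 and Kl, mostly Ttr) went the other way, from 394 FPKM in control to 724 FPKM in SMA total RNA and from 522 to 980 FPKM in polysomal RNA. The astrocyte sum did so too, from 317 to 415 FPKM in total and from 382 to 507 FPKM in polysomal RNA, with the glycolytic enzyme Aldoc the most abundant at 120 and 205 FPKM in total RNA, while Aqp4 was at 53.1 and 44.4 FPKM. Neither of these late sums overlapped between genotypes in either fraction. In early-symptomatic total RNA the astrocyte sum was also higher in SMA, at 291 FPKM in control and 359 FPKM in SMA mice, without overlap. In early-symptomatic polysomal RNA, at 405 and 440 FPKM, the libraries overlapped. With age, in control total RNA, the neuronal sum went from 1999 FPKM at day 5 to 2939 FPKM at day 7 and the microglial sum from 25.5 to 44.9 FPKM, while the choroid plexus sum went from 743 to 394 FPKM and that of dividing cells, whose libraries overlapped between the days, from 34.8 to 20.1 FPKM. In whole brain, fewer cells of a type and less RNA per cell cannot be told apart, and the part of these cells in the values below was not tested.

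The disruption that defines the model lies in exon 7 of Smn1 (ENSMUSG00000021645.14, chromosome 13, 100124852 to 100137690, plus strand, GRCm38), which was replaced by a cassette in the Taiwanese allele. That exon is shown because it is the part of the gene that the allele removes. It is the eighth of 9 exons of the Gencode transcript, since exon 2 is counted in a pair, and spans chr13:100135689-100135739 on the plus strand. The capitals mark the stop codon.
Smn1 exon 7: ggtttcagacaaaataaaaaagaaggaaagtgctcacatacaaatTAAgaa
The exon has 51 bases, of which 45 code before the stop codon, and makes up 4.17% of the 1222-nt transcript. A gene-level FPKM does not separate it from the rest of the gene, so the Smn1 values could not check the genotype labels. Whether reads of the human SMN2 transgene were counted as Smn1 was not tested.

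Smn1 was measured at similar levels in control and SMA brains. In early-symptomatic total RNA it was 9.71 and 8.92 FPKM in controls and 9.55 and 10.09 FPKM in SMA mice. At the late-symptomatic stage it was 13.56, 14.09 and 16.7 FPKM in controls and 11.94, 12.65 and 17.49 FPKM in SMA mice. The genotypes overlapped at both stages, and in both the day 7 values lay above those of day 5. In polysomal RNA, controls had 8.61 and 11.0 FPKM at day 5 and 13.34, 11.94 and 12.46 FPKM at day 7. SMA mice had 9.65 and 9.34 FPKM at day 5 and 13.1, 14.24 and 13.27 FPKM at day 7 in the same fraction. Genotypes overlapped there too, and the stages again did not. The log2 difference between SMA and control was 0.08 in early-symptomatic total RNA (95% confidence interval -0.24 to 0.39) and -0.04 in early-symptomatic polysomal RNA (-0.53 to 0.46). In late-symptomatic brains it was -0.09 in total RNA (-0.53 to 0.35) and 0.11 in polysomal RNA (-0.06 to 0.27). None passed the threshold, and the intervals leave room for changes of up to those sizes. With a replicate left out, the early-symptomatic difference ran from 0.02 to 0.14 in total and from -0.21 to 0.14 in polysomal RNA. The late-symptomatic one ran from -0.26 to 0.01 in total and from 0.07 to 0.15 in polysomal RNA.

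The 9 transcripts differed in level by a factor of 20.5. FPKM is scaled by transcript length, so levels can be set side by side. Strap, a WD-repeat protein with roles outside the complex, averaged 68.2 FPKM over the 20 libraries and stood above 90.2% of the 13101 protein-coding genes tested. Gemin7 averaged 25.7 FPKM and Smn1 12.1 FPKM, the latter in the middle of the range (above 49.2% of coding genes). The remaining 6 members lay in the lower part of it, from Gemin6 at 7.04 FPKM, through Gemin5 at 5.31, Ddx20 at 5.15, Gemin4 at 4.39 and Gemin2 at 3.65 FPKM, to Gemin8 at 3.32 FPKM (above 17.0%). The order was firm at its top. Gemin7 exceeded Smn1 in 20 of 20 libraries, Smn1 exceeded Gemin6 in 19 and Gemin6 exceeded Gemin5 in 19. Below that, neighbours did not differ beyond their spread: Gemin5 was above Ddx20 in 11 libraries, Ddx20 above Gemin4 in 12, Gemin4 above Gemin2 in 12 and Gemin2 above Gemin8 in 14. Gemin8 varied least over the libraries (coefficient of variation 12.8%) and Gemin4 most (48.2%).

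**Figure D1:**
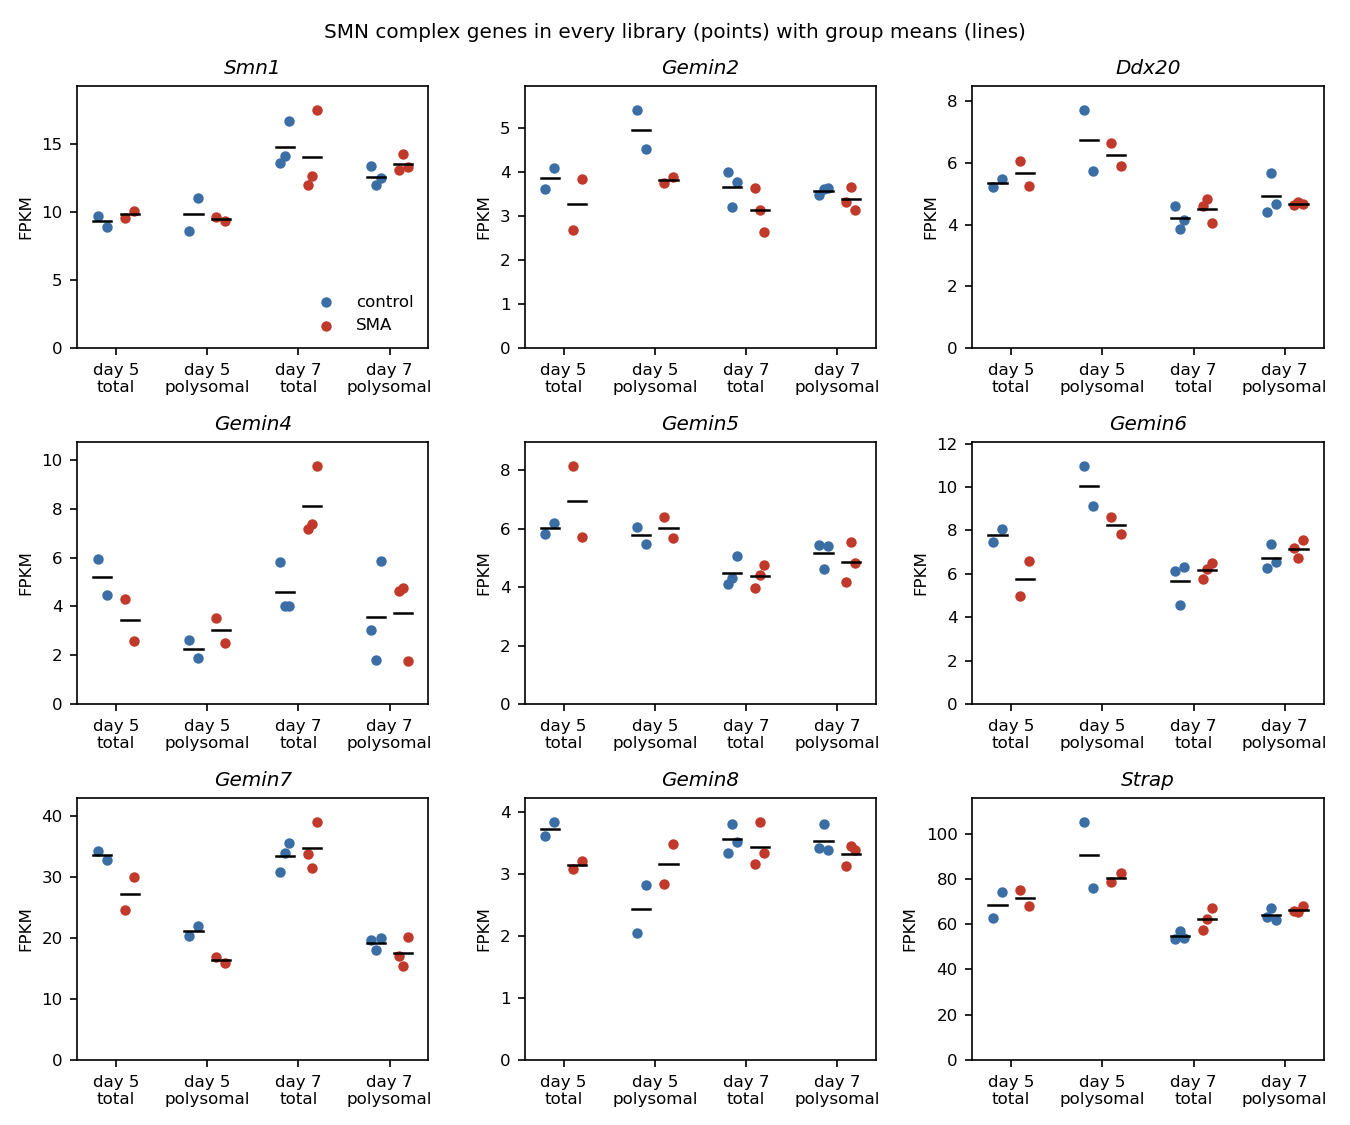
FPKM of each SMN complex gene (vertical axis, one scale per gene, from 0) in every library, by stage and fraction, with controls in blue, SMA in red and the group mean as a line. Smn1 lies between 8.61 and 11.0 FPKM at day 5 and between 11.94 and 17.49 FPKM at day 7, Gemin7 is lower in polysomal than in total RNA, and Gemin4 scatters most.

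Gemin4 values carry a limit that the others do not. Its deposited locus (chromosome 11, 76046226 to 76250619, minus strand, GRCm38) is one merged region that Glod4, Vps53, Rnmtl1, Dbil5, Fam57a and Gm12340 share, while Gencode M21 places Gemin4 itself at 76210571 to 76217664. By that annotation 89.8% of its exonic bases lie within exons of Glod4 on the same strand and 77.0% under Fam57a on the other. Glod4 was far more abundant, with group means from 67.7 to 121 FPKM, so how fragments were split between the genes bears on every Gemin4 value. The library kit kept strand, but strand does not separate Gemin4 from Glod4. The other members had no shared exons except 14.8% of Gemin7, opposite Zfp296, and Gemin5 shared its locus with the predicted gene Gm12246.

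With age, Smn1 was higher while Ddx20, Strap and Gemin5 were lower. The marker sums given above moved over the same days, and their part in these changes was not tested. Comparing day 7 with day 5 within each genotype and fraction asked which transcripts changed as the pups grew and the disease advanced. The day of collection cannot be told apart from any other difference between the collections, and p-values measure the spread between these samples only. Among all genes tested, 40.3% were called in control total RNA, 42% in control polysomal RNA, 32.7% in SMA total RNA and 41% in SMA polysomal RNA, so movement with age was common. Of the 9 members, 4 were called in control total RNA, 4 in control polysomal RNA, 2 in SMA total RNA and 3 in SMA polysomal RNA, shares at or near those backgrounds. After adjustment limma called 1, 0, 0 and 3 members in that order, beside 21.2%, 20.6%, 5.56% and 22.7% of all genes.

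Smn1 rose. In control total RNA its mean was 1.59 times as high at day 7 as at day 5, a log2 change of 0.66 ± 0.12 (SE, limma adjusted p = 0.0313), and in SMA polysomal RNA it was 1.43 times as high (0.51 ± 0.06, limma adjusted p = 0.0212). In the other comparisons it did not pass: 0.37 ± 0.14 in control polysomal RNA (limma adjusted p = 0.120) and 0.49 ± 0.20 in SMA total RNA (adjusted p = 0.173). Every day 7 library was above every day 5 library in each of the 4 comparisons, while 58.5%, 59.8%, 51.6% and 58.7% of all genes did not overlap in one direction or the other in control total, control polysomal, SMA total and SMA polysomal RNA. Both calls held without each replicate in turn. The values that did not pass moved more: in control polysomal RNA Smn1 was at 0.19 without control early replicate 1 and at 0.54, and called, without control early replicate 2, and in SMA total RNA it ran from 0.32, where it was called, without SMA late replicate 3 to 0.59 without SMA late replicate 1. Both were also called among genes above 0 FPKM in every library and with 1 model over all 20 libraries, the first also with a pseudocount of 0.01, without the variance trend and with the length correction, and the second with median scaling and quantile normalization.

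Ddx20, Strap and Gemin5 were lower at day 7, also with no overlap in any of the 4 comparisons. Ddx20 had 5.24 and 5.48 FPKM at day 5 and 4.6, 3.87 and 4.15 FPKM at day 7 in control total RNA, and 6.66 and 5.9 FPKM against 4.65, 4.73 and 4.68 FPKM in SMA polysomal RNA. It fell in SMA polysomal RNA (-0.41 ± 0.09, limma adjusted p = 0.0465) and was called in control total RNA on the unadjusted p alone (-0.35 ± 0.11, adjusted p = 0.0925). Its call in SMA polysomal RNA was lost without SMA early replicate 1, with a change of -0.33. In control total RNA it was lost without either early replicate or late replicate 2 or 3, with changes from -0.38 to -0.29 in those fits, and under quantile normalization, at -0.30.

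Strap had 78.55 and 82.5 FPKM at day 5 and 65.8, 65.36 and 68.02 FPKM at day 7 in SMA polysomal RNA, and fell (-0.28 ± 0.04, limma adjusted p = 0.0234). It was also called in control total RNA (-0.32 ± 0.09, adjusted p = 0.0718) and control polysomal RNA (-0.48 ± 0.16, adjusted p = 0.0948). In SMA polysomal RNA the lowest day 5 library stood above the highest day 7 library. The control calls were lost without control late replicate 1 (-0.30 in total and -0.47 in polysomal RNA) or 3 (-0.31 and -0.45), and in polysomal RNA also without late replicate 2 (-0.51) or without the filter on low values (-0.48). They rested in size on single early libraries, since the total RNA change was -0.19 without control early replicate 2 and the polysomal change was -0.24 without control early replicate 1.

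Gemin5, the snRNA-binding member, was called in total RNA of both genotypes. Controls had 5.81 and 6.21 FPKM at day 5 and 4.09, 4.32 and 5.05 FPKM at day 7 (-0.42 ± 0.12, limma adjusted p = 0.0836). SMA mice had 8.15 and 5.71 FPKM at day 5 and 3.96, 4.41 and 4.74 FPKM at day 7 (-0.63 ± 0.20, adjusted p = 0.119). SMA early replicate 1 stood high, and without it the SMA change was -0.38 and no longer called. The SMA call was also lost without any 1 of the 3 late replicates, with changes reaching -0.69. The control call was lost without either early replicate or late replicate 1 or 2, with control changes from -0.47 to -0.36 in those fits.

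Among the remaining members, calls with age came in one genotype and fraction each and none passed after adjustment. In control polysomal RNA, Gemin2 (-0.46 ± 0.13, limma adjusted p = 0.0701) and Gemin6 (-0.57 ± 0.14, adjusted p = 0.0536) were lower at day 7 and Gemin8 was higher (0.54 ± 0.18, adjusted p = 0.0953). Without control early replicate 1, these changes were -0.33, -0.44 and 0.31 and none was called. Gemin2 and Gemin8 were also lost without any 1 of the 3 late control replicates, with changes reaching -0.47 and 0.57. Gemin4 was higher at day 7 in SMA total RNA, at 7.19, 7.38 and 9.76 FPKM against 4.31 and 2.57 FPKM at day 5 (1.24 ± 0.29, adjusted p = 0.0755), and kept its call without each replicate in turn. Gemin7 was not called with age in any comparison, with changes from -0.14 to 0.35, though in SMA total RNA it was called among genes above 0 FPKM in every library (0.35), with median scaling (0.42), with 1 model over all 20 libraries (0.35) and without SMA early replicate 2 (0.49).

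**Figure D2:**
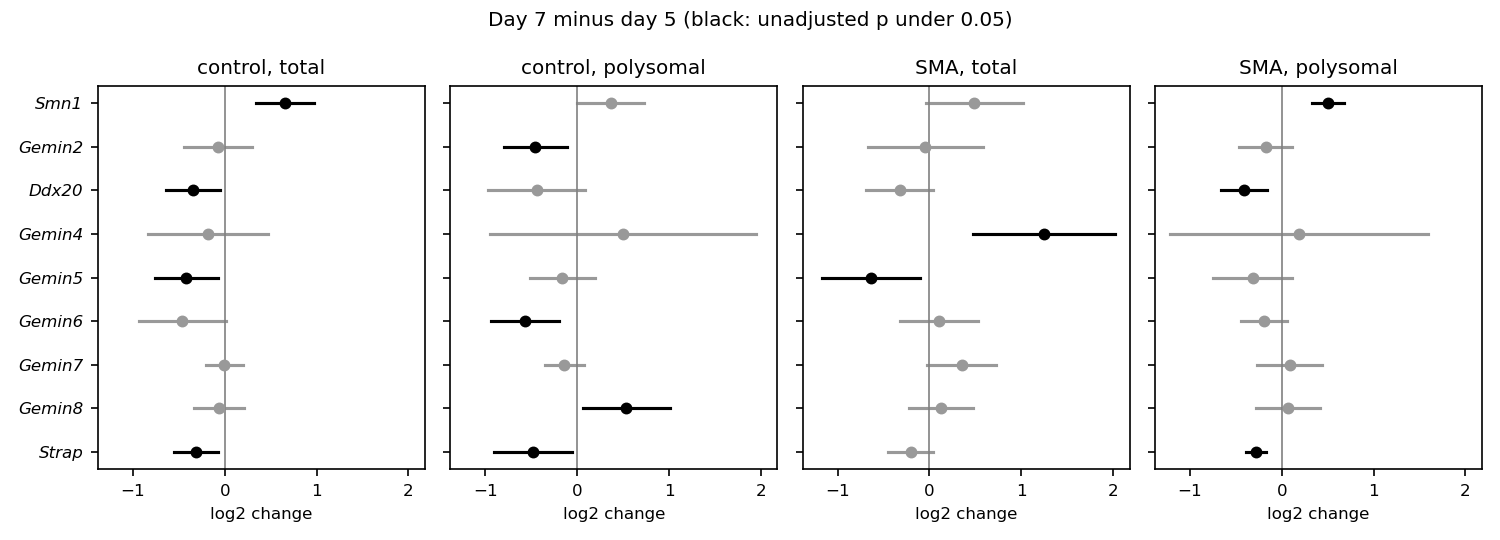
Log2 change in FPKM + 0.1 from day 5 to day 7 (horizontal axis) of the 9 members, one panel per genotype and fraction, with 95% confidence intervals from limma and genes at unadjusted p under 0.05 in black. Smn1 lies to the right of 0 in all 4 panels, from 0.37 to 0.66, and Ddx20, Strap and Gemin5 lie to the left in all 4.

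The SMA against control comparison asked whether the rest of the complex changed where SMN was low. Few members were called and none passed after adjustment for multiple tests. At unadjusted p under 0.05, 0 of 9 members were called in early-symptomatic total RNA, where 8.25% of all genes tested were. In early-symptomatic polysomal RNA 1 member was called (12.5% of all genes), in late-symptomatic total RNA 2 (9.54%) and in late-symptomatic polysomal RNA 0 (10.7%). After Benjamini-Hochberg adjustment limma called 0 members in each, against 0.164%, 0.649%, 0.111% and 0.0918% of all genes. The median log2 change of the members was -0.24, -0.09, 0.05 and -0.06 in the same order, beside medians of 0.01, -0.01, 0 and 0 over all genes.

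Among the members below control at the early-symptomatic stage were Gemin6 and Gemin7. In polysomal RNA Gemin7 had 20.32 and 22.07 FPKM in controls and 16.97 and 16.01 FPKM in SMA mice, with no overlap, a log2 change of -0.36 ± 0.09 that was called (limma adjusted p = 0.386). In total RNA the same gene had 34.36 and 32.82 FPKM in controls and 24.71 and 29.98 FPKM in SMA mice, a change of -0.30 ± 0.12 that was not called. In the same RNA Gemin6, its partner, had 7.47 and 8.07 FPKM in controls and 4.99 and 6.57 FPKM in SMA mice (-0.43 ± 0.19, not called). Both rested on the SMA libraries, as without SMA early replicate 1 the changes were -0.16 for Gemin7 and -0.24 for Gemin6, and without SMA early replicate 2 they were -0.44 and -0.63 and called. Both were called with 1 model over all 20 libraries, and Gemin6 among genes above 0 FPKM in every library. Gemin4, Gemin6, Gemin7 and Gemin8 had non-overlapping groups in total RNA, all lower in SMA, and Gemin2, Gemin6 and Gemin7 in polysomal RNA, with Gemin8 non-overlapping in the other direction. With 2 libraries against 2, 47.6% and 50.5% of all genes did not overlap in these comparisons (22.5% and 26.6% lower in SMA, and 23.9% higher in polysomal RNA).

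Transcript length moved with these early values. In early-symptomatic brains the log2 change from control to SMA rose with the length of the transcript across 13067 genes, with medians of -0.21 in the shortest 25% of them and 0.18 in the longest 25% in total RNA, and -0.21 and 0.15 in polysomal RNA. Gemin7 (1023 nt) and Gemin6 (1134 nt) are short, with 4.68% and 6.02% of genes shorter, and Smn1 (1222 nt) is nearly so. After the length trend was taken out, the polysomal Gemin7 change was -0.18 and not called, and the total RNA changes were -0.08 for Gemin7 and -0.21 for Gemin6. The early Smn1 changes given above were not corrected for this trend. The late-symptomatic medians were 0.02 and -0.01 in total RNA and 0.03 and -0.02 in polysomal RNA. The polysomal Gemin7 call was also lost without control early replicate 2 or without either SMA early replicate, with changes from -0.42 to -0.30 over the 4 fits that left out a library, and it was lost with the replicate number as a block (-0.36).

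Gemin8 lies on the X chromosome, and sex was not matched between groups. By Ddx3y and Xist, both early-symptomatic controls read as male and the SMA mice as 1 female and 1 male, while late-symptomatic controls were 1 male and 2 females and SMA mice 2 males and 1 female. In early-symptomatic total RNA Gemin8 had 3.61 and 3.84 FPKM in controls, 3.08 FPKM in the female SMA replicate and 3.21 FPKM in the male one. Late-symptomatic total RNA had 3.34, 3.81 and 3.52 FPKM in controls and 3.16, 3.83 and 3.33 FPKM in SMA mice, and the genotypes overlapped. The part of sex in any of the comparisons was not tested.

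In late-symptomatic total RNA, Gemin4 and Strap were higher in SMA, as were the choroid plexus and astrocyte sums given above, whose part was not tested. Gemin4 had 5.8, 4.01 and 4.0 FPKM in controls and 7.19, 7.38 and 9.76 FPKM in SMA mice, 1.76 times the control mean (0.81 ± 0.20, limma adjusted p = 0.349). Strap had 53.36, 56.96 and 53.8 FPKM in controls and 57.49, 62.25 and 67.07 FPKM in SMA mice (0.18 ± 0.07, adjusted p = 0.483). Neither gene's groups overlapped, as was so for 15% of all genes. The Gemin4 call held without each replicate in turn, with changes from 0.67 to 0.99. Glod4, which shares its exons, averaged 68.5 FPKM in controls (SD 3.82) and 69.6 FPKM in SMA mice (SD 2.24). How fragments were split between Gemin4 and Glod4 was not tested. The Strap call was lost without control late replicate 1 or 3 or SMA late replicate 2 or 3, with changes from 0.13 to 0.24 over the 6 fits. Neither was called when all 20 libraries shared 1 model, though the changes were still 0.81 for Gemin4 and 0.18 for Strap. In late-symptomatic polysomal RNA all 9 members overlapped between genotypes (16.1% of all genes did not), and Gemin4 was scattered, at 3.03, 1.8 and 5.84 FPKM in controls and 4.63, 4.75 and 1.78 FPKM in SMA mice.

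**Figure D3:**
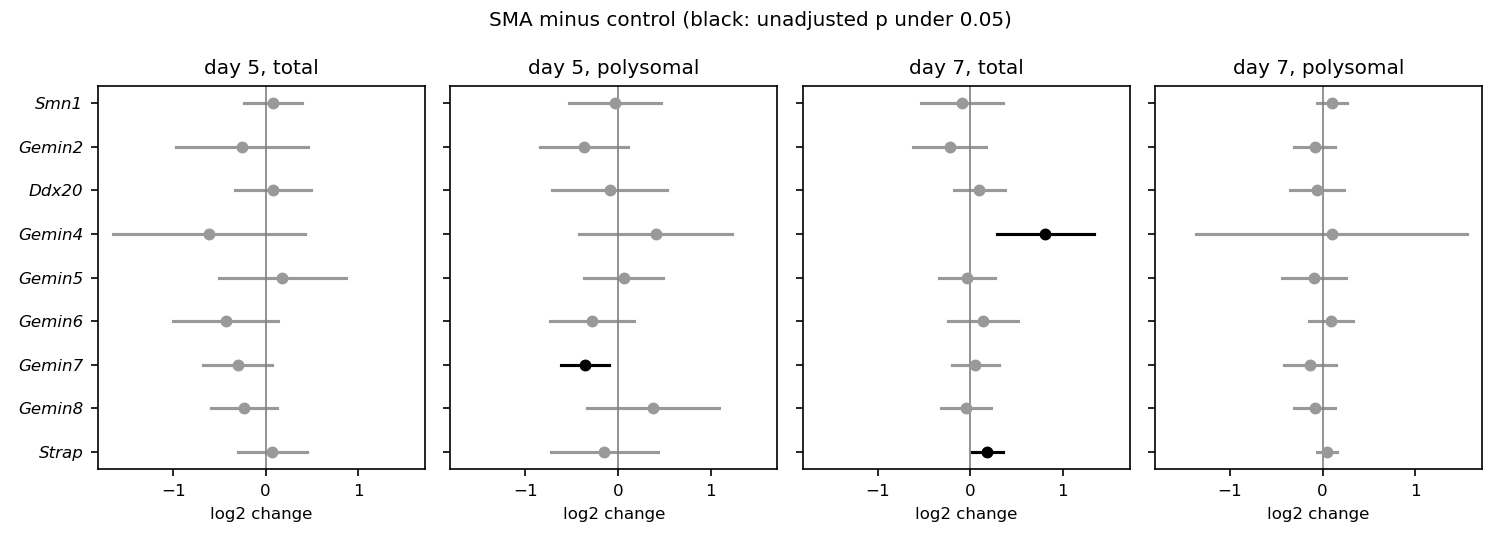
Log2 change in FPKM + 0.1 from control to SMA (horizontal axis) of the 9 members in each stage and fraction, with 95% confidence intervals from limma and genes at unadjusted p under 0.05 in black. Called are Gemin7 in day 5 polysomal RNA (-0.36) and Gemin4 (0.81) and Strap (0.18) in day 7 total RNA, and the Smn1 intervals cross 0 in all 4 panels.

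Whether the effect of SMA differed between the stages was tested as an interaction. In total RNA 2 members were called, where 10.1% of all genes were: Gemin4 went from -0.61 at day 5 to 0.81 at day 7, a difference of 1.43 ± 0.39 (limma adjusted p = 0.486), and Gemin6 from -0.43 to 0.14, a difference of 0.57 ± 0.24 (adjusted p = 0.486). In polysomal RNA Gemin6 was the 1 member called (13.7% of all genes), with a difference of 0.37 ± 0.16 (limma adjusted p = 0.363). After adjustment 0 members were called in either fraction (0.125% and 0.597% of all genes). Both Gemin6 calls were lost with the length trend taken out, at 0.32 and 0.17, and each was lost when 7 of the 10 replicates were left out in turn, with values in those fits from 0.37 (without SMA early replicate 1) to 0.62 in total RNA and from 0.24 (without control early replicate 1) to 0.44 in polysomal RNA. The polysomal call was also lost among genes above 0 FPKM in every library and with 1 model over all 20 libraries, at 0.37 in both. The losses in total RNA came without either control early replicate, SMA early replicate 1, control late replicate 2 or any SMA late replicate, and in polysomal RNA without control early replicate 1, either SMA early replicate, control late replicate 1 or 3 or SMA late replicate 1 or 3. Gemin4 kept its call without each replicate, with differences from 1.06 to 1.79. Its day 5 change ran from -0.98 to -0.25 with a replicate left out.

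Polysomal RNA was set against total RNA to see which of the transcripts were more or less present on polysomes, as log2 translation efficiency (TE), the polysomal minus the total value. Gemin7 was the 1 member below 0 throughout. Its polysomal value was below its total value in 10 of 10 replicate numbers, by -1.02 to -0.54 on the log2 scale, a polysomal to total ratio between 0.492 and 0.688. The labels do not say that libraries with the same number came from 1 brain, though the sex read from them was the same in both fractions for 10 of 10 numbers, so values with the replicate number as a block are given where they change a call. The groups themselves did not overlap either in any of the 4 comparisons (62%, 47.8%, 30.8% and 35% of all genes did not, in early controls, early SMA, late controls and late SMA). Late-symptomatic controls had 30.87, 34.03 and 35.71 FPKM in total and 19.67, 18.02 and 20.02 FPKM in polysomal RNA (-0.80 ± 0.11, limma adjusted p = 0.0018). Late-symptomatic SMA mice had 33.91, 31.58 and 39.12 FPKM in total and 17.12, 15.5 and 20.27 FPKM in polysomal RNA (-0.98 ± 0.11, adjusted p = 0.00049). Lower polysomal values were seen in early-symptomatic controls (-0.66 ± 0.11, adjusted p = 0.0498) and SMA mice (-0.72 ± 0.11, adjusted p = 0.0716). The call on the unadjusted p held in all 4 groups without each replicate in turn and with the block.

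Strap and Gemin6 lay on the other side of 0 in 10 of 10 replicate numbers, with smaller values. The share of all genes that did so was not computed. The median over all genes was 0.02 in early controls, 0 in early SMA mice and 0.05 in both late groups. Polysomal and total libraries overlapped for Strap in late-symptomatic SMA mice and for Gemin6 in late-symptomatic controls. Strap TE ranged from 0.02 to 0.75, and it was higher in polysomal RNA of late-symptomatic controls, at 63.38, 67.29 and 61.86 FPKM against 53.36, 56.96 and 53.8 FPKM in total RNA (0.23 ± 0.06, limma adjusted p = 0.0276). Gemin6 TE ranged from 0.03 to 0.78 and the gene was called in early-symptomatic SMA mice, at 8.63 and 7.83 FPKM in polysomal and 4.99 and 6.57 FPKM in total RNA (0.51 ± 0.17, adjusted p = 0.233). That call was lost without SMA early replicate 1, at 0.25. It was also lost without either control early replicate and with the replicate block, with the value still at 0.51. Gemin6 and Gemin7, neighbours in 1 subunit of the complex, thus lay on opposite sides of 0 in every replicate number.

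Gemin4 TE was below 0 in 9 of 10 replicate numbers and the most scattered, from -2.39 to 0.53. It was called in early-symptomatic controls (-1.18 ± 0.33, limma adjusted p = 0.112). That call was lost without either control replicate, though the values stayed about as large, at -1.20 and -1.15. It was also called in late-symptomatic SMA mice (-1.21 ± 0.46, limma adjusted p = 0.110). There it was -0.62 and not called without SMA late replicate 3, and not called but still at -1.21 with the replicate block. Glod4, whose exons Gemin4 shares, had a polysomal mean of 121 FPKM and a total mean of 68.9 FPKM in early-symptomatic controls. These means were 98.15 and 67.68 FPKM in early-symptomatic SMA mice. They were 69.45 and 68.47 FPKM in late-symptomatic controls and 81.5 and 69.6 FPKM in late-symptomatic SMA mice. Gemin8 was lower in polysomal RNA of early-symptomatic controls, at 2.04 and 2.82 FPKM against 3.61 and 3.84 FPKM (-0.61 ± 0.19, limma adjusted p = 0.123). That call was lost without control early replicate 1, at -0.43, and under quantile normalization, at -0.44. It was also lost without either SMA early replicate, with the value still at -0.61. Smn1, Gemin2, Gemin5 and Ddx20 were not called in any group with all libraries and the settings used throughout, though in controls Ddx20 was called under quantile normalization early (0.44) and late (0.30), with 1 model over all 20 libraries early (0.31) and without control late replicate 1 (0.35), and Smn1 late without SMA late replicate 3 (-0.23). Smn1 TE lay between -0.42 and 0.30. In all, 3 members were called in early-symptomatic controls (27.7% of all genes), 2 in early-symptomatic SMA mice (17.7%), 2 in late-symptomatic controls (28.7%) and 2 in late-symptomatic SMA mice (30.2%), and after adjustment 1, 0, 2 and 1, beside 2.82%, 0.925%, 13.6% and 15.3% of all genes.

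**Figure D4:**
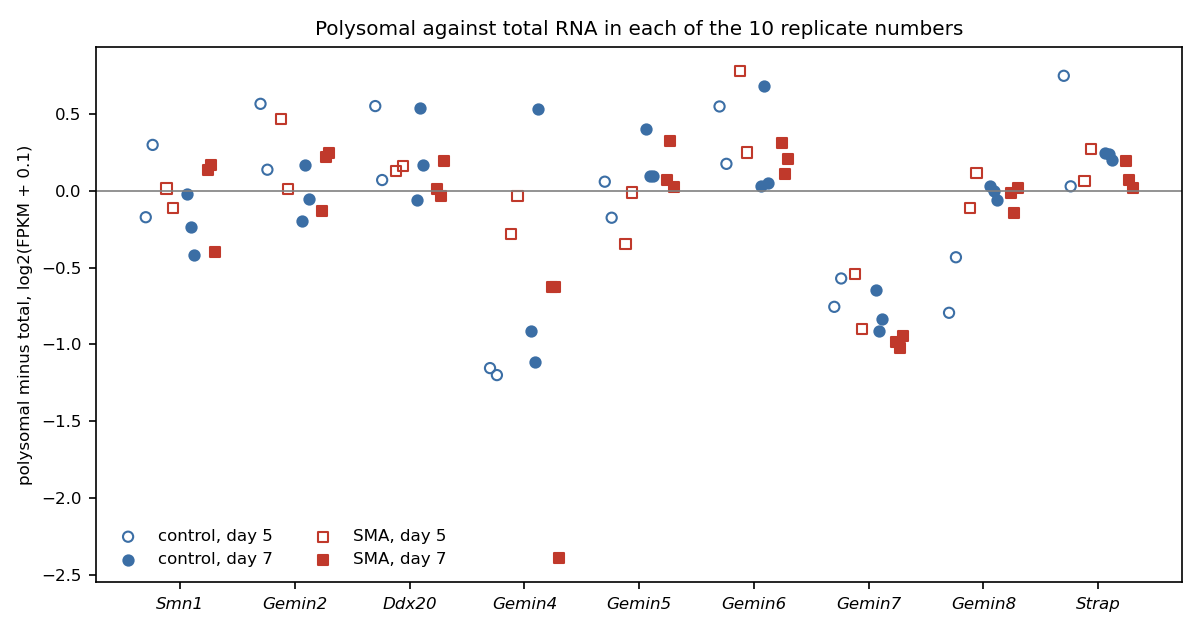
Polysomal minus total log2(FPKM + 0.1) of each member (vertical axis) in the 10 replicate numbers, with controls as blue circles, SMA as red squares, day 5 open and day 7 filled. All 10 Gemin7 points lie between -1.02 and -0.54, all Strap and Gemin6 points lie above 0, and the lowest point is Gemin4 in SMA late replicate 3 at -2.39.

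The change in TE in SMA, tested as the interaction of genotype and fraction, was called for 0 of 9 members at either stage by limma at unadjusted p under 0.05, where 2.32% of all genes were called early and 2.07% late. The widest early values were those of Gemin4 (1.02 ± 0.47, SE) and Gemin8 (0.61 ± 0.26). The widest late value was again that of Gemin4, on the other side of 0 (-0.72 ± 0.65). It ran from -1.02 to -0.13 with a replicate left out. Other settings called 1 member early. It was Gemin4 with the replicate number as a block (1.02), among genes above 0 FPKM in every library (1.02) and with the length correction (1.05), Gemin8 with 1 model over all 20 libraries (0.61), and Strap without control early replicate 2 (-0.58). Late, Strap was called without SMA late replicate 1 (-0.18) and Smn1 without SMA late replicate 3 (0.38). For Gemin7 the change in TE was -0.06 (95% interval -0.45 to 0.33) at day 5 and -0.19 (-0.54 to 0.16) at day 7, and for Smn1 -0.11 (-0.58 to 0.36) and 0.20 (-0.24 to 0.63). With a replicate left out the Smn1 change ran from -0.35 (without control early replicate 1) to 0.12 (without control early replicate 2) at day 5, on both sides of 0, and from 0.10 to 0.38 at day 7. That of Gemin7 ran from -0.24 to 0.12 at day 5, also on both sides of 0, and from -0.24 to -0.11 at day 7.

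The partners of the complex in snRNP assembly were read from a list of 30 genes: the PRMT5 methylosome that prepares Sm proteins, the Sm ring, the U7-specific Lsm proteins, the factors of snRNA export, cap modification and import, Cajal body proteins, and Prpf8 with U1 proteins. Coil was left out because 2 rows carry its symbol, which left 29, all of them tested. SMA against control, 3 were called in early-symptomatic total RNA, 6 in early-symptomatic polysomal RNA, 4 in late-symptomatic total RNA and 2 in late-symptomatic polysomal RNA, beside 8.25%, 12.5%, 9.54% and 10.7% of all genes, and limma called 0 of the list after adjustment in each. The counts rested on single libraries: with each replicate left out in turn they ran from 1 to 12, 1 to 12, 1 to 5 and 0 to 5. Prpf8, a core protein of the U5 snRNP with a long transcript, was the 1 gene higher early, by 0.73 ± 0.09 in total and 0.65 ± 0.09 in polysomal RNA (limma adjusted p = 0.551 and 0.308), and kept both calls without each replicate. The genes lower in early polysomal RNA included the Sm ring members Snrpg (-0.51 ± 0.08), Snrpd1 (-0.34 ± 0.07) and Snrpe (-0.53 ± 0.14), whose products SMN handles directly, and each of these calls was lost without either SMA early replicate, at values between -0.57 and -0.34. Lsm10 (-0.36 ± 0.08), of the U7 ring, and Snrpa (-0.28 ± 0.08), the U1 A protein, were lower in early total RNA. Both were lost without either control early replicate, Lsm10 also without SMA early replicate 2 (-0.32) and Snrpa without SMA early replicate 1 (-0.21). Over the 4 fits Lsm10 ran from -0.41 to -0.30 and Snrpa from -0.36 to -0.21. The list medians were -0.11 in total and -0.24 in polysomal RNA at the early stage, beside 0.01 and -0.01 for all genes, and 0.02 and 0.01 late. The length trend given for Gemin6 and Gemin7 ran through the same early comparisons, and the list values given here were not corrected for it. In late-symptomatic brains Wrap53, which brings small RNAs to Cajal bodies, was lower in total (-0.35 ± 0.11) and polysomal RNA (-0.33 ± 0.11), Snrnp70, the U1 70K protein, was lower in total RNA (-0.24 ± 0.07), Snrpn, an Sm protein made in neurons, was higher in total RNA (0.15 ± 0.06) and Xpo1, the export receptor, was lower in polysomal RNA (-0.19 ± 0.07). Snrnp70 kept its call without each replicate. Wrap53 in both fractions and Xpo1 lost theirs in 5 of 6 fits, all but the one without control late replicate 1, with changes in the lost fits from -0.37 to -0.27 for Wrap53 in total and -0.36 to -0.25 in polysomal RNA, and from -0.20 to -0.15 for Xpo1, and Snrpn lost its own in 4 of 6, all but those without control late replicate 1 or SMA late replicate 2, with changes from 0.11 to 0.16 where lost.

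With age the list had calls in both directions, as did the members and all genes tested. From day 5 to day 7, 7 of 29 were called higher and 14 lower in control total RNA, 6 and 9 in control polysomal RNA, 6 and 7 in SMA total RNA, and 8 and 9 in SMA polysomal RNA. Over all genes 20.1% were called higher and 20.1% lower, 20.7% and 21.4%, 15.7% and 17%, and 21.1% and 19.9% in the same order. With each replicate left out, the counts in either direction ran from 13 to 19, 8 to 13, 9 to 15 and 14 to 17. Snrpa rose in all 4 comparisons, by 1.11 ± 0.05, 1.40 ± 0.18, 1.29 ± 0.11 and 1.24 ± 0.06 in that order (limma adjusted p = 0.0040, 0.0223, 0.0272 and 0.0061). Snrpn rose by 0.50 ± 0.07 in control polysomal RNA and by 0.59 ± 0.09 in SMA total RNA (adjusted p = 0.0249 and 0.0488). It was also called higher in control total (0.37) and SMA polysomal RNA (0.46). Phax, the snRNA export adaptor, fell by 0.79 in control total RNA (adjusted p = 0.0045) and was at -0.49 ± 0.09 in SMA total RNA (adjusted p = 0.0578). It was also called lower in control polysomal (-0.86) and SMA polysomal RNA (-0.52). Sart3, a snRNP recycling factor, was at -0.80 ± 0.14 in SMA total RNA and fell in SMA polysomal RNA (-0.60 ± 0.08, adjusted p = 0.0224). In controls Sart3 was also called lower, at -0.90 in total and -0.40 in polysomal RNA. Snrpc, the U1 C protein, rose in SMA polysomal RNA (0.57 ± 0.06, adjusted p = 0.0182). It was also called higher in control total (0.31), control polysomal (0.25) and SMA total RNA (0.90). The control polysomal calls of Sart3 and Snrpc were each lost in 4 of 5 fits with a replicate left out.

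On polysomes most of the list sat above its total value. In late-symptomatic controls 17 of 29 were called higher in polysomal RNA and 1 lower, and in late-symptomatic SMA mice 13 higher and 1 lower, with 17% and 17.8% of all genes called higher. In early-symptomatic brains 5 were called higher in controls and 6 in SMA mice, and 0 lower, with 14.4% and 7.9% of all genes called higher. With each replicate left out in turn, the counts in either direction ran from 1 to 9 in early controls and 2 to 9 in early SMA mice, and from 12 to 17 and 10 to 16 in the late groups. The list median was 0.20 in late-symptomatic controls and 0.19 in SMA mice, beside 0.05 for all genes in both. Examples were Snrpc (0.34 ± 0.07, limma adjusted p = 0.0134), Nolc1, a nucleolar and Cajal body phosphoprotein (0.32 ± 0.07, adjusted p = 0.0137), and Phax (0.33 ± 0.07, adjusted p = 0.0197) in late-symptomatic controls, and the cap-binding subunit Ncbp2 (0.47 ± 0.09, adjusted p = 0.0112) and Snrnp70 (0.27 ± 0.06, adjusted p = 0.0118) in SMA mice. Snrpc (0.32), Nolc1 (0.29) and Phax (0.26) were also called in late-symptomatic SMA mice. Ncbp2 (0.26) was also called in late-symptomatic controls, and Snrnp70 was not. The methylosome chaperone Clns1a was higher in both early groups (0.37 ± 0.07 in controls, adjusted p = 0.0585, and 0.27 ± 0.07 in SMA mice, adjusted p = 0.161). The Sm protein gene Snrpg was the 1 lower gene in both late groups. In controls it was at -0.31, a call lost in 1 of 6 fits with a replicate left out. In late-symptomatic SMA mice it was at -0.32 ± 0.11 (adjusted p = 0.0867), a call lost without SMA late replicate 2 (-0.32) or 3 (-0.22). The change in TE in SMA was called for 0 of 29 at either stage, and for 0 to 3 early and 0 to 1 late with a replicate left out.

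No other member of the complex followed the Smn1 profile closely. Over the 8 group means, each gene centred on its own mean, the 5 protein-coding genes nearest to Smn1 among 13100 were Slc25a16 (root mean square difference 0.05 on the log2 scale), Dusp3 (0.07), Prmt8 (0.07), Zbtb4 (0.07) and Smim13 (0.07). The nearest member was Gemin8, at rank 3133 with a difference of 0.25, and the others ranked from 8139 for Gemin2 to 10390 for Gemin4. Gemin8 was also the member that varied least over the libraries, so its rank does not by itself show that it moved with Smn1. These distances are a description over 8 means of libraries that share their collection days.

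**Figure D5:**
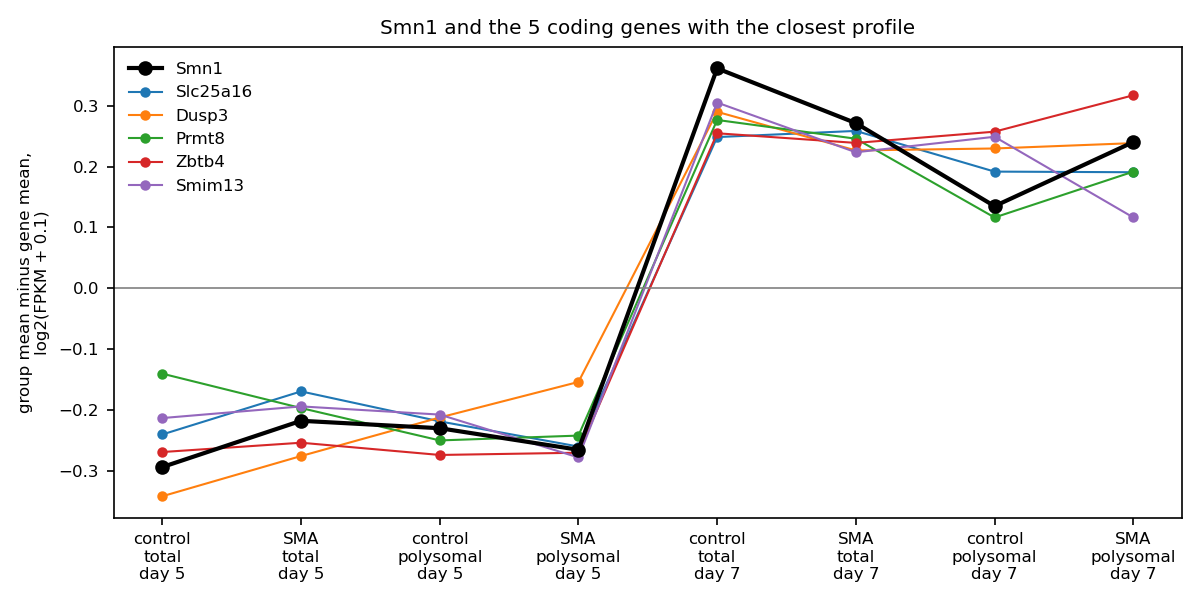
Group means of log2(FPKM + 0.1) minus the mean of the gene (vertical axis) over the 8 groups, for Smn1 in black and the 5 closest coding genes in colours. All 6 genes lie below 0 in the 4 day 5 groups and above 0 in the 4 day 7 groups, Smn1 between -0.29 and 0.36.

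The starts of the genes were read in RefSeq promoter sequences (GRCm38.p6), 11 windows for the 9 members, over the 250 bases before the start and on both strands. Median GC content was 55.6% over the member windows and 52.4% over 32851 promoters. The GC box core GGGCGG was in 7 of the 11 windows and in 32.7% of those promoters. The 7 were windows of Ddx20, Gemin2, Gemin4, Gemin7 and Gemin8 and 2 overlapping windows of Gemin5. CCAAT was in 2, of Smn1 and Gemin8 (33.8% of all), and TATAAA in 0 (12.4% of all). The members lie on 8 chromosomes, and the pair on chromosome 11, Gemin4 and Gemin5, is not adjacent.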

How the data were processed

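The deposited table gives 1 FPKM value per gene and library. Per the submitters' processing notes and the study's methods, the authors aligned reads of stranded, ribosomal RNA-depleted libraries to GRCm38.p4 with TopHat2 2.0.14 and computed FPKM with Cufflinks 2.2.1 on a Gencode annotation, normalized to mapped fragments. All columns were matched to libraries by their labels, and 0 were left unused. The authors' tests need alignments or counts, so limma 3.58.1 (R 4.3.3) was used on log2(FPKM + 0.1), with a trend in the prior variance. SMA against control and day 7 against day 5 were fitted on the groups compared, TE and polysomal against total RNA on the 4 groups of a stage, and the stage difference on the 4 groups of a fraction. Tested were the 15247 genes that averaged 1 FPKM or more over all libraries, and p-values were adjusted over all of them by Benjamini-Hochberg. The tests were checked on simulated data, and no result given here rests on that check. A log2 change with this pseudocount understates changes of low genes.

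The members and gene lists were chosen with earlier results of these data known. Named were the 9 members, per comparison and direction up to 3 genes of the assembly list with the smallest p among those called whose groups did not overlap, and the 5 genes closest to Smn1 in profile. Alternatives covered the pseudocount, the filter, scaling, the variance prior, 1 model over 20 libraries, transcript length, replicate number as a block, and each replicate left out. Transcript lengths and exons came from Gencode M21 (GRCm38), and starts in the deposited loci count from 0, so 1 was added. Labels do not say which libraries share a brain.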

Additional observations from a re-analysis of the deposited data

Results flagged for a closer look

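In 3 tests the effect of SMA differed between the stages at unadjusted p under 0.05, and 0 of them passed after Benjamini-Hochberg adjustment in limma. Gemin4 in total RNA had a difference of 1.43 on the log2 scale between day 7 and day 5, with an interval from 0.52 to 2.33, and shares 89.8% of its exonic bases with Glod4. Gemin6 had a difference of 0.57 in total RNA and 0.37 in polysomal RNA, and both were no longer called once the length trend was taken out. Total and polysomal RNA cannot be counted as separate evidence, since their libraries may come from the same brains.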

How the results depend on the processing

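The counts of called members were recomputed under each alternative, and no called change of a member was reversed. Changes that were not called took the other sign in 21 of 1122 values under other settings and in 77 of 655 with a replicate left out, never past the threshold. With 1 model over 20 libraries, SMA against control gave 2 and 3 called members in early-symptomatic total and polysomal RNA and 0 in late-symptomatic total RNA, the early TE change 1, polysomal against total RNA in early-symptomatic controls 6 and day 7 against day 5 in SMA total RNA 5. Restricting to genes above 0 FPKM in every library gave 1 in early-symptomatic total RNA, 1 for the early TE change, 4 for age in SMA total RNA and 0 for the stage difference in polysomal RNA. Median scaling gave 4 for age in SMA total RNA, and quantile normalization gave 4 there, 4 for polysomal against total RNA in late-symptomatic controls and 2 for the stage difference in polysomal RNA. The length correction gave 0 in early-symptomatic polysomal RNA, 1 for the early TE change and 1 for the stage difference in total RNA.

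After Benjamini-Hochberg adjustment the counts were 0 for SMA against control in early-symptomatic polysomal and late-symptomatic total RNA, 1 for polysomal against total RNA in early-symptomatic controls and late-symptomatic SMA mice and 0 in early-symptomatic SMA mice, 1 and 0 for age in control total and polysomal RNA, 0 in SMA total RNA, and 0 for both stage differences. With replicate number as a block, the count was 0 in early-symptomatic polysomal RNA, 1 for the early TE change and 1 for polysomal against total RNA in SMA mice at either stage. Whether the numbers pair total and polysomal libraries is not settled by the labels. Deviations of same-numbered total and polysomal libraries correlated between -0.039 and 0.109 over all genes tested, and those of control and SMA libraries between -0.090 and 0.033. Over 9779 strongly expressed coding genes the ranges were 0.122 to 0.539 and -0.302 to 0.195.

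Leaving out each replicate in turn, SMA against control gave 0 to 2 called members in early-symptomatic total RNA, 0 to 1 in early-symptomatic polysomal RNA, 1 to 2 in late-symptomatic total RNA and 0 to 1 in late-symptomatic polysomal RNA, and the TE change 0 to 1 at either stage. Polysomal against total RNA gave 1 to 3 in early-symptomatic controls, 1 to 2 in early-symptomatic SMA mice, 2 to 4 in late-symptomatic controls and 1 to 3 in late-symptomatic SMA mice. Age gave 2 to 3 in control total RNA, 1 to 6 in control polysomal RNA, 1 to 3 in SMA total RNA and 2 to 3 in SMA polysomal RNA, and the stage difference 1 to 4 in total RNA and 0 to 4 in polysomal RNA. Of the 28 calls on single members, 251 of 264 values under the other settings stayed called, and 98 of 155 when a replicate was left out. A lone remaining early replicate was assumed to vary like the other group. The causes of these shifts were not tested. Groups of 2 or 3 libraries limit the precision of every value.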
